A study of Solanum lycopersicum with 27 samples.

Results

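Mature tomato leaves labelled control were compared between day 4 and day 5 of a water-deficit experiment, as the first step of the change over days in that arm. The comparison comprised 6 of the 27 libraries of the series, 3 from day 4 and 3 from day 5, and these were taken by their labels alone. Whether the arm labels match the watering of each plant was not tested. An exchange of labels cannot be told apart here from a change in watered leaves. All plants were wild-type Solanum lycopersicum of the cultivar Moneymaker, were 50 days old when the experiment began, and were kept in long days of 16 h light and 8 h dark. Control plants were watered every second day to the capacity of the soil, whereas plants of the deficit arm received no water from the start of the count, so the day number of a control library is a calendar position and not a treatment time. The other arm at the same days, 3 libraries at day 4 and 3 at day 5 labelled water deficit, was used to ask whether the step differed between the arms. Each library held polyadenylated RNA of a single leaflet of a mature leaf. The sources used here do not give the hour of collection, the time since the last watering, or whether replicate leaflets came from separate plants, so p-values measure only the spread between these libraries. Each day may have been 1 collection, so day and collection cannot be told apart within an arm. With watering every second day, days 4 and 5 of the control arm may also fall at different points of the watering cycle. That cannot be told apart from the day either.

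A mature leaf is a source organ that fixes carbon in its mesophyll and exports sucrose through the phloem. Its transcripts come mostly from mesophyll, with smaller parts from epidermis, guard cells, trichomes and vascular tissue. In bulk tissue, fewer cells of a type and less RNA per cell cannot be told apart. Genes are given by locus identifier (Solyc numbers, the identifiers of the tomato gene annotation). The deposited table does not pair them with gene names, and 0 of 34688 matched the reference table, so no role is given to a locus, and the labelled tissue could not be checked against its defining markers.

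The 6 control libraries were deep and of like size, with totals from 18424884 to 19301781 counts at day 4 and from 18334277 to 19463781 at day 5. At least 1 count was found at 20732 to 20870 loci at day 4 and at 20563 to 20806 loci at day 5. The 10 most abundant loci held 6.09% to 6.67% of the counts at day 4 and 5.92% to 6.13% at day 5. Within the 2 groups, pairs of libraries correlated at r = 0.990 to 0.993 on the log2 scale of CPM. CPM are counts relative to the library total after TMM scaling, not divided by gene length. Between day 4 and day 5, pairs correlated at r = 0.964 to 0.970. No 2 replicates agreed within sampling noise, as chi-square per degree of freedom was 4.05 to 11.1 within these groups. At 11582 loci with a mean of at least 10 CPM, the median coefficient of variation between replicates was 6.95% at day 4 and 5.77% at day 5. Each of the 6 libraries correlated better with its own group than with any other group of days 4 and 5. Replicate 3 of day 4 was the least like its group, with chi-square values of 7.70 and 11.1 against 5.80 for the other pair.

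The day 5 control libraries stood away from the other 9 libraries of days 4 and 5. On the first principal component of these 12 libraries, which carried 56.0% of the variance of log2 CPM, the mean score of the control libraries was -3.21 at day 4 (SD 1.42) and 65.3 at day 5 (SD 3.22, 3 libraries each). Deficit libraries scored -40.5 on average at day 4 (SD 0.893) and -21.6 at day 5 (SD 1.82). On the second component, with 13.7% of the variance, the control step ran from -16.1 ± 2.81 to 0.0547 ± 2.35 and the deficit step from -16.0 ± 0.421 to 32.1 ± 3.09 (SD, n = 3 each). The control step was thus the longer one on the first component and the shorter one on the second.

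**Figure D1:**
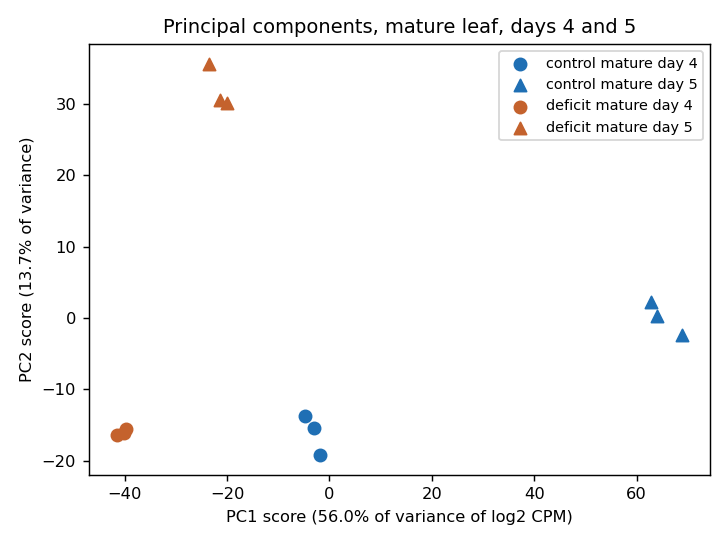
Scores of the 12 mature leaf libraries of days 4 and 5 on the first component (x axis) and the second (y axis) of log2 CPM, 1 point per library, with control in blue, deficit in orange, day 4 as circles and day 5 as triangles. The 3 control libraries of day 5 sit between 62.8 and 68.9 on the first component, to the right of all others.

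Between day 4 and day 5, 39.1% of the loci tested changed in leaves labelled control. The quasi-likelihood test of edgeR, fitted to the 12 libraries and adjusted by Benjamini-Hochberg, called 7040 of 17998 loci at an adjusted p below 0.05. Loci called higher at day 5 numbered 3250, or 18.1% of those tested, and loci called lower numbered 3790, or 21.1%. Most changes were small: the median log2 fold change was 0.50 among the loci called higher and -0.52 among those called lower, and over all loci tested the median absolute value was 0.22. At least 2-fold changes were called at 1411 loci, or 7.84% of those tested, with 617 higher and 794 lower. At least 4-fold changes were called at 147 loci higher and 172 lower, at least 8-fold at 54 and 55, and at least 16-fold at 19 and 23.

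Of the 7040 called loci, 6695 had no overlap between the 3 day 5 values and the 3 day 4 values. Over all loci tested, called or not, there was no overlap at 8431, or 46.8%, where the test called 39.1%. With 3 against 3 values in random order, a share of 0.1 would not overlap. Among the 1411 loci called at 2-fold or more, 611 of the 617 higher and 782 of the 794 lower had no overlap between the days, and at 4-fold or more none of them overlapped. The calls rest on the same values, so the lack of overlap at called loci largely follows from the call and is no further test. In each of 6 further fits that left out a control library in turn, 4891 of the 7040 loci were called with an unchanged direction, 2474 of them higher and 2417 lower. The call count also depended on which other groups shared the estimate of the spread. It was 3672 with all 27 libraries in the fit and 7214 when replicate 1 of the mature day 10 deficit group, which earlier results of these data place among the control-labelled libraries, was left out of that fit.

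**Figure D2:**
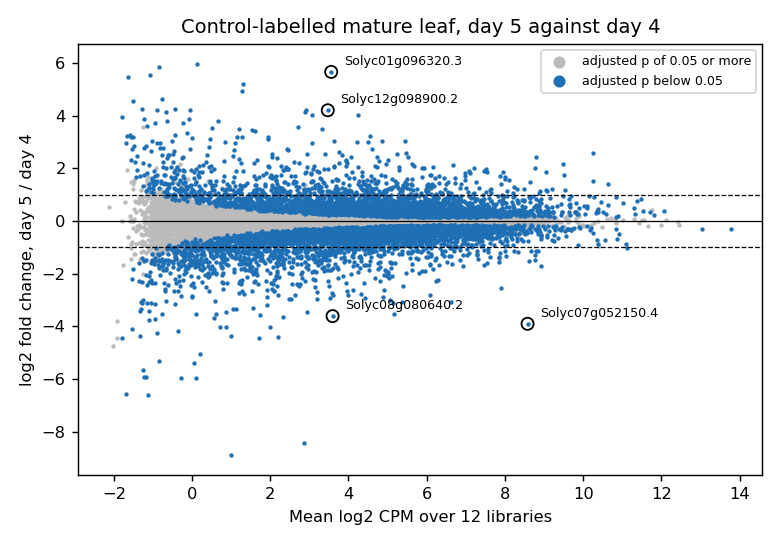
Log2 fold change of day 5 over day 4 in control-labelled mature leaf (y axis) against mean log2 CPM over 12 libraries (x axis), 1 point per locus, blue where the adjusted p was below 0.05. Dashed lines mark 2-fold, and the 4 circled loci are those described by identifier, with log2 fold changes from -3.90 to 5.67.

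The share of loci called rose with abundance. The share called at 2-fold or more fell with abundance, from 18.97% below 1 CPM to 4.47% at 100 to 1000 CPM. It was higher again only in the class of at least 1000 CPM. Among loci with a mean of 100 to 1000 CPM, 48.9% of 2146 were called, but 4.47% at 2-fold or more. Among loci of 1 to 10 CPM, 35.3% of 5024 were called and 12% at 2-fold or more. Among the 69 loci of at least 1000 CPM, 65.2% were called and 8.70% at 2-fold or more, and their median absolute log2 fold change, 0.34, was close to the 0.32 of the class of 1 to 10 CPM. The median standard error of the log2 fold change was 0.069 in the class of 100 to 1000 CPM and 0.18 in the class of 1 to 10 CPM, so smaller changes could be called in the more abundant class. Below 1 CPM the median standard error was 0.39, and 21.8% of 1392 loci were called. A scarce locus could enter the test through the day on which it was high, so the shares of the scarce classes are descriptions only.

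The 69 loci with the highest CPM, each with a mean of at least 1000 CPM, were called higher at 31, or 44.9%, and lower at 14, or 20.3%, beside 18.1% and 21.1% of all loci tested. The share called lower was thus near that of all loci. Their log2 fold changes ran from -1.005 to 2.59, with 5 loci at least 2-fold higher and 1 at least 2-fold lower. Together these 69 loci held 16.1% to 16.9% of all counts in the day 4 control libraries and 17.4% to 17.96% in those of day 5, without overlap. In the deficit arm 32 of the same loci rose and 8 fell, where 13.6% of all loci were called higher and 12.3% lower.

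The called loci together made up a large share of the leaf's polyadenylated RNA. The 3250 loci called higher held 24.0 ± 0.226% of all counts at day 4 and 34.5 ± 0.254% at day 5 (SD, n = 3 each). The 3790 loci called lower held 25.9 ± 0.421% at day 4 and 17.9 ± 0.166% at day 5. For the 617 loci at least 2-fold higher, the share of counts was 2.11%, 2.10% and 2.08% in the 3 day 4 libraries and 6.05%, 6.02% and 6.04% in the 3 day 5 libraries. For the 794 loci at least 2-fold lower it was 2.23%, 2.19% and 2.27% at day 4 and 0.764%, 0.816% and 0.831% at day 5. As these sets were chosen by the same contrast, the shares describe their size and are no further test.

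Few loci went from absence to presence. A single locus called higher had 0 counts in all 3 day 4 control libraries, and its mean at day 5 was 1.67 counts per library. Among loci called lower, 9 had 0 counts in all 3 day 5 control libraries, with day 4 means from 2.33 to 60.7 counts and a median of 7.67. A count of 0 allows up to 3 counts in a library, or 0.157 to 0.174 CPM in these 6, counting error only. All 9 had counts in each of the 6 deficit libraries of days 4 and 5, and 5 of them also had 0 counts in both control libraries of day 8. A locus with so few control counts could enter the test through its deficit libraries, so counts there were partly fixed by the filter. Of all 34688 loci, 12701 had 0 counts in the 3 day 4 control libraries and 12835 in those of day 5.

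The loci with the largest changes are given by identifier where their mean log2 CPM was at least 3 and the days did not overlap. These criteria were met by 2341 loci called higher and 2569 called lower. Larger folds were called below that abundance, at 2 loci higher and 23 lower, with extremes of 5.99 and -8.90 on the log2 scale. As the 4 loci were picked for the size of their change, their folds mark the edge of the distribution, and the tests of a difference between the arms at these loci, which contain the same control step, are descriptions.

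Solyc01g096320.3 had the largest rise. Its level was 6.50, 6.10 and 6.35 CPM in the day 4 control libraries and 367, 283 and 316 CPM in those of day 5. All 3 day 5 values were far above all 3 day 4 values. The log2 fold change was 5.67 (SE 0.12, adjusted p = 3.15e-17, quasi-likelihood test), a ratio of mean CPM of 51.0. In the deficit libraries it was 2.31, 2.75 and 2.21 CPM at day 4 and 2.98, 3.29 and 4.67 CPM at day 5, so the deficit libraries of both days lay below the lowest control library. The control and deficit steps differed by a log2 value of 5.09 (SE 0.25, adjusted p = 4.53e-11).

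The level of Solyc01g096320.3 in later control libraries was higher still, with means of 604 CPM at day 8 (SD 63.3, n = 2) and 807 CPM at day 10 (SD 0.565, n = 2). Deficit libraries of day 8 held 5.47 ± 0.561 CPM (SD, n = 2). In young leaves of day 10 the mean was 968 CPM in the control arm (SD 43.1, n = 3) and 2.89 CPM in the deficit arm (SD 0.631, n = 3). Replicate 1 of the mature day 10 deficit group had 867 CPM, in the range of the control libraries, against 3.87 and 7.08 CPM in the other 2 libraries of that group.

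Solyc12g098900.2 had the next largest rise. It stood at 7.44, 8.41 and 7.21 CPM in the day 4 control libraries and at 134, 131 and 163 CPM in those of day 5. The days did not overlap, and the log2 fold change was 4.21 (SE 0.10, adjusted p = 6.66e-17, quasi-likelihood test). The deficit libraries held 2.83, 3.08 and 3.37 CPM at day 4 and 4.82, 4.09 and 3.60 CPM at day 5, with an adjusted p of 0.0515 for that step in the same fit. The steps differed by 3.77 on the log2 scale (SE 0.20, adjusted p = 5.55e-11). Control libraries averaged 550.2 CPM at day 8 (SD 47.3, n = 2) and 466 CPM at day 10 (SD 4.56, n = 2), and young control leaves 662 CPM (SD 7.30, n = 3). Young deficit leaves held 1.23 ± 0.255 CPM (SD, n = 3).

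Solyc07g052150.4, an abundant locus at day 4, had the largest fall. It went from 576, 515 and 709 CPM in the day 4 control libraries to 42.7, 39.3 and 38.2 CPM in those of day 5. The spread between replicates was small beside this difference, and the log2 fold change was -3.90 (SE 0.12, adjusted p = 1.64e-13, quasi-likelihood test). In the deficit arm the level was 1193, 1117 and 1006 CPM at day 4 and 745, 751 and 928 CPM at day 5. That step had a log2 change of -0.45, with a standard error of 0.11 and an adjusted p of 0.00419 in the same fit. The steps of the arms thus had the same sign and differed by -3.45 on the log2 scale (SE 0.16, adjusted p = 1.21e-10).

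Later control libraries were close to the counting floor at Solyc07g052150.4, with 6 and 10 counts at day 8 and 2 and 5 counts at day 10. The deficit libraries of day 8 held 458 ± 37.8 CPM (SD, n = 2). Young leaves of day 10 labelled deficit held 936 ± 117 CPM (SD, n = 3), and those labelled control had 7, 1 and 1 counts.

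Solyc08g080640.2 followed another course. It fell from 23.2, 17.97 and 20.9 CPM in the day 4 control libraries to 1.92, 1.34 and 1.79 CPM in those of day 5. The log2 fold change was -3.61 (SE 0.18, adjusted p = 1.48e-11, quasi-likelihood test), with no overlap between the days. The deficit libraries held 31.5, 30.6 and 26.97 CPM at day 4 and 18.2, 23.8 and 16.2 CPM at day 5, a fall of 0.61 on the log2 scale (SE 0.13, adjusted p = 0.00154). The difference between the steps was -3.005 on the log2 scale (SE 0.23, adjusted p = 1.61e-08). In control libraries the mean level was 2.19 CPM at day 8 (SD 0.0275, n = 2) and 10.9 CPM at day 10 (SD 0.0503, n = 2), so the low level of day 5 was not the level of day 10. The mature deficit libraries of day 10 held 10.6, 12.6 and 13.1 CPM. The lowest of these is replicate 1, just below both control libraries, and the other 2 lie above them.

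**Figure D3:**
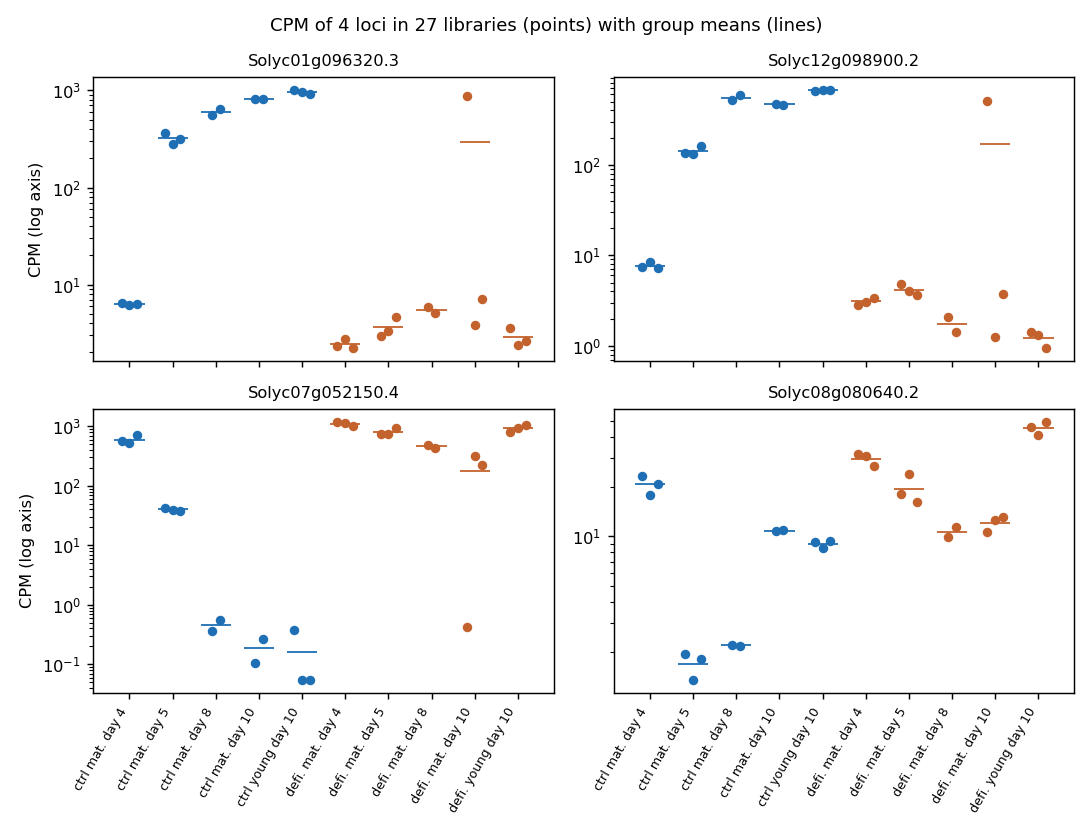
CPM (log axis) of the 4 loci in all 27 libraries, 1 point per library with a line at the group mean, control in blue and deficit in orange, mature leaf by day and young leaf of day 10. Between day 4 and day 5 of the control arm the upper loci have log2 fold changes of 5.67 and 4.21 and the lower loci of -3.90 and -3.61, while 1 deficit library of mature day 10 sits with the control libraries at 3 of the 4 loci.

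The 12 loci with the largest rises under the same criteria had log2 fold changes from 2.95 to 5.67, from day 4 means of 4.46 to 30.2 CPM to day 5 means of 34.6 to 322 CPM. In the deficit arm, where 13.6% of all loci tested were called higher and 12.3% lower, 4 of these 12 were called higher and 0 lower, with a median log2 fold change of 0.38. The 12 loci with the largest falls had log2 fold changes from -3.90 to -2.82, and in the deficit arm 9 of them were called lower and 1 higher, with a median of -0.41. The difference between the steps was called at all 24, but it contains the control step for which they were chosen and is no further evidence. The median level of the 12 rising loci was 10.5 CPM at day 4, 127 CPM at day 5, 292 CPM at day 8 and 263 CPM at day 10 in mature control leaves. That of the 12 falling loci was 44.4, 5.00, 0.492 and 0.553 CPM on the same days. Among the 12 rising loci, day 8 means ran from 14.9 to 1011 CPM. The lowest of these lay below every day 5 mean of the list, so not all 12 kept rising.

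The same step in leaves labelled deficit was smaller in number and size of calls. There 4656 of the 17998 loci were called, or 25.9%. Higher at day 5 were 2447 and lower 2209, and the change reached 2-fold at 702, or 3.9%. At 8-fold or more the deficit step had 18 called loci and the control step 109. The 2 steps share no library. Over the 17998 loci, which are no independent replicates, Pearson's r between their log2 fold changes was 0.252 and Spearman's rho 0.225. At the 11582 loci with a mean of at least 10 CPM the values were r = 0.383 and rho = 0.262.

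Loci called in both steps moved more often in the same direction than in opposite directions. Of the 3250 loci called higher in control leaves, 1111 were also called higher in deficit leaves. That is 34.2% against a background of 13.6% of all loci tested. Another 170, or 5.23%, were called lower, against a background of 12.3%. Of the 3790 loci called lower, 999 were also called lower, or 26.4% against a background of 12.3%. Another 495, or 13.1%, were called higher, against a background of 13.6%. The 2110 loci of the same direction were 30.0% of the control step and 45.3% of the deficit step. The median absolute log2 fold change of these shared loci was 0.59 in control and 0.50 in deficit leaves, and 215 of them changed at least 2-fold in both arms. The fits share 1 estimate of the spread per locus, so a locus measured precisely was more easily called in each step.

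A direct test showed that the step itself differed between the arms at 4847 loci, or 26.9% of those tested. At 2048 of them the control step was the more positive and at 2799 the more negative. The absolute change was larger in the control step at 3382 of the 4847. Among the loci called in the control step, the difference was called at 1584 of the 3250 higher and 2124 of the 3790 lower. Among those called at 2-fold or more it was called at 409 of the 617 higher and 638 of the 794 lower. The difference contains the control step by which these loci were chosen. These counts therefore partly follow from the choice and are no further test. Of the 7040 loci called in the control step, 4265 missed the threshold in the deficit step. At 2401 of these, which are among those counted above and were chosen by both steps, the difference itself was called. A missed threshold alone is therefore not read as a difference between arms. With all 27 libraries in the fit the difference was called at 1078 loci, and at 4952 without replicate 1 of the mature day 10 deficit group.

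The 2 arms moved in opposite directions at 665 loci called in both. At 495 of them the level fell in control and rose in deficit leaves, with median absolute log2 fold changes of 0.62 and 0.48. These 495 were 13.1% of the loci called lower in control leaves, near the 13.6% of all loci tested that were called higher in deficit leaves. At the other 170 the level rose in control and fell in deficit leaves, with medians of 0.43 and 0.39. These 170 were 5.23% of the loci called higher in control leaves, below the 12.3% of all loci tested that were called lower in deficit leaves. Neither count thus exceeded the share over all loci. Changes of at least 2-fold in both arms were found at 44 of the 665.

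**Figure D4:**
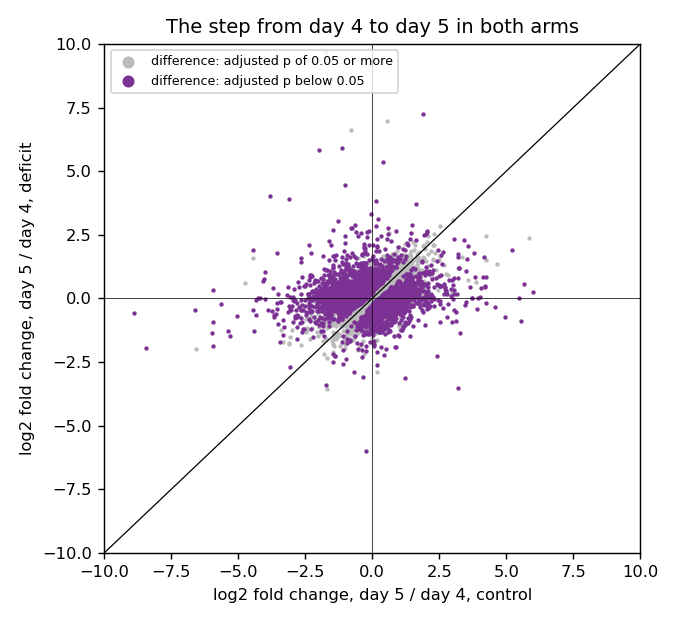
Log2 fold change of day 5 over day 4 in deficit-labelled mature leaf (y axis) against that in control-labelled mature leaf (x axis), 1 point per locus with the line of equal change. Purple points are the 4847 loci whose step differed between the arms at an adjusted p below 0.05, and they spread more widely along the control axis.

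Libraries that played no part in choosing the called loci were then examined. At day 8, control and deficit libraries of mature leaf differed in the direction of the control step at most of these loci. Of the 3250 loci called higher at day 5, 3247 were tested there, and 2179 of them, or 67.1%, were called higher in control than in deficit leaves, against a background of 36.2% of all 18715 loci tested. Of the 3790 loci called lower, 3769 were tested and 2892, or 76.7%, were called lower in control, against a background of 37%. The median log2 difference of control minus deficit at day 8 was 0.69 for the former, -0.98 for the latter and -0.01 over all loci. For the loci at least 2-fold higher or lower at day 5 these medians were 1.80 and -2.83.

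Young developing leaves of day 10 gave like values. There 2336 of 3247 loci, or 71.9%, were called higher in control leaves, with a background of 39%, and 2934 of 3769, or 77.8%, were called lower in control, with a background of 37.2%. Some loci went the other way: at day 8, 547 of the loci higher at day 5 were called lower in control than in deficit leaves, and 312 of those lower at day 5 were called higher. Both comparisons are between arms and not between days, and the 2 libraries per arm at day 8 limit the first of them. The mature leaves of day 10 were not tested in this way, as that deficit group holds the library that lies with the control-labelled ones.

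The levels of the 2-fold sets by library show where day 5 of the control arm stood in the whole series. For the 617 loci that were higher, the median CPM over the loci was 3.93, 3.94 and 4.04 in the day 4 control libraries and 13.3, 13.2 and 12.96 in those of day 5. It was 18.2 and 18.9 at day 8, and 17.6 and 18.3 at day 10. In deficit libraries of mature leaf it was 3.15, 3.18 and 3.26 at day 4, 4.71, 4.46 and 4.67 at day 5, and 4.42 and 4.25 at day 8. For these loci day 5 of the control arm thus stood above every deficit library of days 4 to 8 and below the control libraries of days 8 and 10.

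For the 794 loci that were lower, the median was 5.08, 4.65 and 4.49 CPM in the day 4 control libraries and 1.49, 1.51 and 1.56 CPM in those of day 5. Control libraries of day 8 had 0.613 and 0.611 CPM, and those of day 10 had 0.751 and 0.759 CPM. The deficit libraries stayed between 4.88 and 5.93 CPM from day 4 to day 8. Replicate 1 of the mature day 10 deficit group had 18.2 CPM for the first set and 0.790 CPM for the second, near the control libraries, whereas the other 2 libraries of that group had 3.63 and 3.71 CPM and 4.58 and 4.35 CPM. Levels on days 4 and 5 chose these sets, so only the later days and the deficit arm carry information beyond the choice.

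**Figure D5:**
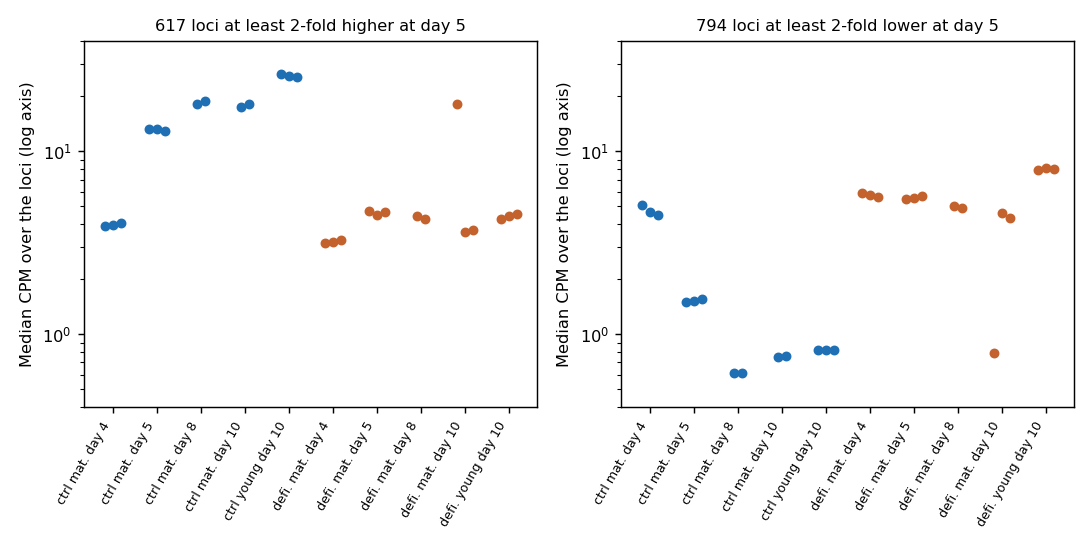
Median CPM (log axis) over the 617 loci at least 2-fold higher (left) and the 794 at least 2-fold lower (right) at day 5 of the control arm, 1 point per library, by group, control in blue and deficit in orange. On the left the day 5 control libraries sit at 12.96 to 13.3 CPM, between day 4 at 3.93 to 4.04 and day 8 at 18.2 to 18.9.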

How the data were processed

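The authors deposited raw read counts per locus for 27 libraries of paired-end reads of 100 nt. The submitters' processing notes name DESeq2; the aligner, counter, genome build, annotation and use of strand are not given in the sources used here, so reads shared by near-identical, overlapping or antisense loci may have been split or dropped. Groups came from titles and columns from descriptions.

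Counts of the 12 mature leaf libraries of days 4 and 5 were fitted in R 4.3.3 with edgeR 4.0.16 (limma 3.58.1): filterByExpr, TMM scaling (factors 0.940 to 1.05), 1 coefficient per group, robust dispersions, quasi-likelihood F tests and Benjamini-Hochberg adjustment over the 17998 of 34688 loci tested, which held 99.95% of counts. Calls had an adjusted p below 0.05. Standard errors were obtained from the log2 fold change and F (their quotient after taking the root of F). Other groups were kept out of the fit because a mature day 10 deficit library lying with the other label raises the shared spread. Printed CPM were scaled by TMM over all 27 libraries, and log2 CPM used a prior count of 2. Day 8 mature and day 10 young libraries (10 in all) were fitted separately, a comparison added after results were seen.

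The comparison, tests and lists were chosen with earlier results of these data known. The naming rule took the 2 largest rises and 2 largest falls among called loci whose mean log2 CPM reached 3 and whose days did not overlap, as no identifier matched the 41476 reference genes (SLM_r2.1 assembly). The planned gene family and cell type marker lists needed names and were not used.

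Totals of the 12 libraries ran from 16655107 to 19463781 counts. On simulated data with 200 of 17998 loci changed 2-fold in control day 5, the procedure recovered 84% for the control step, with 13 false calls. Alternatives were DESeq2 1.42.0, scaling by RLE or the upper quartile, other filters, other sets of libraries, thinning, a block by replicate number, and omission of single libraries. Same-numbered libraries of control days 4 and 5 had deviations correlating at 0.0185 to 0.188, not all over 0.1, so numbers were not treated as pairs.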

Additional observations from a re-analysis of the deposited data

Results flagged for a closer look

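The step from day 4 to day 5 differed between the arms, by the test of the difference itself (edgeR's quasi-likelihood test, Benjamini-Hochberg adjustment), at 4847 of 17998 loci. It also passed at the 4 loci given by identifier, which were chosen for the size of their control step, a part of that difference, so the choice largely fixed this outcome. The control step exceeded the deficit step by 5.09 on the log2 scale at Solyc01g096320.3 and by 3.77 at Solyc12g098900.2, and the control minus deficit value was -3.45 at Solyc07g052150.4 and -3.005 at Solyc08g080640.2. At each of these 4 loci the 3 day 5 control libraries lay on 1 side of the 3 day 4 control libraries, as the rule for naming them required.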

How the results depend on the processing

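With all 27 libraries in the fit the count of called loci was 3672 for the control step, 2042 for the deficit step and 1078 for the difference between the steps. Without replicate 1 of the mature day 10 deficit group in that fit, the counts were 7214, 4705 and 4952. Of the 3672 loci, 3608 were among the 7040, with the same direction. All other alternatives stayed within 1.5 times of the reported counts. Leaving out 1 compared library at a time gave 6049 to 7296 calls for the control step, 1384 to 1507 at 2-fold or more, 3486 to 4442 for the deficit step and 4001 to 5481 for the difference. The 7296 calls came without replicate 3 of control day 4, and leaving out any other control library gave 6049 to 6328. Over all alternatives the share of control-step calls that were higher at day 5 ranged from 43.8% to 51.8%, so neither direction is said to prevail. The 4 loci given by identifier kept direction and call in all 16 alternatives each. With all 27 libraries in the fit, however, the standard error rose to 1.25 at Solyc01g096320.3, 1.19 at Solyc12g098900.2 and 0.905 at Solyc07g052150.4. Their adjusted p in that fit was 0.00392, 0.0188 and 0.00552 (quasi-likelihood test). At Solyc08g080640.2 the standard error was 0.16. The shares of loci with the same direction in other libraries ranged from 62.2% to 70.9% (higher) and 73.7% to 81.1% (lower) at day 8, and from 68.9% to 73.7% and 75.8% to 83.1% in young leaf, over alternatives chosen after seeing the data, some of which left 1 day 8 library in an arm, assumed to vary like the other groups. With a replicate block the counts were 7445, 5083 and 5358. In deviations from the group means, each of the 3 libraries of control day 4 and of control day 5 correlated best with its own number on the other day, a hint from the data and not the design. Only the compared groups in the fit could not be run for the difference between steps, which needs all 12 libraries. Depth limits the loci below 1 CPM, where the median standard error was 0.39.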

Other observations

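In the identifiers of the tomato annotation the digits after Solyc give the chromosome, with zeros for sequence not placed on one. The loci of the control step were spread over all 12 chromosomes: the share of tested loci called ran from 35.7% of 1205 on chromosome 11 to 41.2% of 1289 on chromosome 9. The share called higher was 16.5% on chromosomes 10 and 11 and reached 19.3% on chromosome 1, where 443 of 2301 loci were called higher. Of the 578 loci on unplaced sequence, 89 were tested, 1 was called higher and 0 were called lower. That is 1.124% called, beside 39.1% of all loci tested. At many of these loci the standard error was near or above the size of the log2 fold change. The lack of calls there therefore does not show that their levels were unchanged.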
